A study of Mus musculus with 2 samples.

Results

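In healing mouse femurs, 10 genes of the transforming growth factor beta (TGF-β) system were followed through the cell types of the fracture callus, the tissue that bridges a broken bone, by single-cell RNA sequencing (scRNA-seq). The members were the ligand genes Tgfb1, Tgfb2 and Tgfb3, the receptor genes Tgfbr1, Tgfbr2 and Tgfbr3, the latency gene Ltbp1 and the matrix genes Tgfbi, Postn and Cthrc1. They were chosen by symbol, 10 of the 32285 genes of each matrix, and all 10 were found in both libraries. The members and the lists of further genes were chosen with earlier results of these data known. Their counts beside the shares of all genes are therefore descriptions. The calluses came from femoral fractures of wild-type mice, which were C57BL/6J males of 12 weeks according to the methods of the study, and for which no other allele or agent is given. The design had calluses of 10 days (n = 5 mice) and 20 days (n = 5 mice) after fracture, each library holding cells of several animals that the barcodes do not tell apart. The labels of the 2 libraries, titled MGJ and MGJ2, gave neither of them a day, so both were left without a group. Their values are set side by side, days were not compared, and with no replicate of a condition no test across samples was possible. A level is given in CPM, the summed unique molecular identifiers (UMIs, each standing for 1 captured RNA molecule) of a gene per 1000000 UMIs of a class. Because 3′ counting gives 1 UMI per captured molecule whatever its length, levels of different genes are set beside each other without scaling by length. Whether the genes were captured equally well was not tested. All intervals are 95% intervals and cover counting error only.

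TGF-β ligands are secreted in a latent form, in which a propeptide shields the ligand and latent TGF-β binding proteins such as the product of Ltbp1 anchor the complex to fibrillin-rich matrix. Integrins and proteases release the active ligand, which binds the type II receptor Tgfbr2. This receptor then recruits and phosphorylates the type I receptor Tgfbr1, and SMAD proteins carry the signal to the nucleus. Tgfbr3, or betaglycan, has no kinase and presents ligand, TGF-β2 above all, to the signalling receptors. Tgfbi and Postn encode related secreted proteins of the fasciclin family that bind collagen and integrins, and Cthrc1 encodes a secreted glycoprotein of collagen-producing cells. In bone repair the system is known for its part in chondrogenesis, in matrix production and in the coupling of bone resorption to formation.

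The genes lie on separate chromosomes. On GRCm38 (GENCODE M21), the ligand genes span chr7:25687002-25705077 on the plus strand (Tgfb1), chr1:186622792-186705989 on the minus strand (Tgfb2) and chr12:86056745-86079041 on the minus strand (Tgfb3). The receptor genes span chr4:47353222-47414931 on the plus strand (Tgfbr1), chr9:116084293-116175360 on the minus strand (Tgfbr2) and chr5:107106570-107289629 on the minus strand (Tgfbr3). On the plus strand lie Tgfbi at chr13:56609523-56639562, Ltbp1 at chr17:75005568-75392512, Postn at chr3:54361109-54391037 and Cthrc1 at chr15:39076932-39087121. RefSeq promoter windows (GRCm38.p6) matched 7 of the 10 members, Tgfb3, Tgfbr3 and Cthrc1 being without an entry. The 250 bases before the start are shown for Tgfb1 and Tgfb2, the main ligand genes of haematopoietic and of mesenchymal cells here, and for Postn, the member with the highest level in any class. Each is written 5′ to 3′ on the strand of its gene, at chr7:25686752-25687001 for Tgfb1, chr1:186705990-186706239 for Tgfb2 and chr3:54360857-54361106 for Postn. Capitals mark the TATAAA of a TATA box and CAGAC, the letters of a SMAD binding element.
Tgfb1: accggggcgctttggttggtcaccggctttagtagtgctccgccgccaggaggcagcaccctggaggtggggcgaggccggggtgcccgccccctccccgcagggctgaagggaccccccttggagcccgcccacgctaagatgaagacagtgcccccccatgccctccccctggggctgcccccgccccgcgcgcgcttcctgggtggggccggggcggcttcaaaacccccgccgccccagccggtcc
Tgfb2: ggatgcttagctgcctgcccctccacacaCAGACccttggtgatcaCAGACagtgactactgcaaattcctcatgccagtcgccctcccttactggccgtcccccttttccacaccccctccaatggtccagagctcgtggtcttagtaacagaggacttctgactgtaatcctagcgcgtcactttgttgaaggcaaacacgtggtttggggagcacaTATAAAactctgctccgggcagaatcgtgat
Postn: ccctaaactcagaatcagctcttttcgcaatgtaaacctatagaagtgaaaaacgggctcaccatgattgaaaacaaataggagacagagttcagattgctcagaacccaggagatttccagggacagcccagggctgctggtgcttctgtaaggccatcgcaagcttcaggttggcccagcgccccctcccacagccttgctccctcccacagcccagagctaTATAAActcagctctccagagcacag
Searched on both strands, TATAAA was present in 12.4% and CAGAC in 42.2% of all 32851 promoter windows, and TGACTCA, the letters of an AP-1 element, in 4.46%. The Tgfb2 window held TATAAA from 31 to 26 bases before the start and CAGAC at 2 places. The Postn window, at the RefSeq start that most GENCODE transcripts share, held TATAAA from 26 to 21 bases before the start and no CAGAC, and the Tgfb1 window held none of these letters. G and C made up 75.2% of the Tgfb1 window, 53.6% of the Tgfb2 window and 52% of the Postn window, beside a median of 52.4% over all windows. The Tgfbi window held CAGAC at 2 places on the opposite strand. CAGAC was also held by the Tgfbr2 window, by both Ltbp1 windows, and by the window at another start of Tgfbr1 and of Postn. No member window held TGACTCA. These matches describe letters in a window and are not evidence of binding.

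MGJ held 14295 barcodes with a median of 5026 UMIs, of which 13322 were kept as cells, and MGJ2 held 8009 with a median of 4952, of which 7583 were kept. The libraries shared 19 barcodes. Doublet calls reached 1.03% in MGJ, where 11.4% was expected at this loading, and 2.86% in MGJ2, where 6.41% was expected, so barcodes with more than 1 cell remained. Cells were placed in classes by lists of marker genes, and neither these lists nor the clustering used a member. Classes of at least 50 cells numbered 17 in MGJ and 14 in MGJ2. The mesenchymal-like cells of MGJ were 2573 chondrocyte-like, 723 tenocyte-like, 587 fibroblast-like, 212 osteoblast-like and 154 mural-like cells. MGJ2 held 136 chondrocyte-like cells and 77 other mesenchymal-like cells, which were 42 osteoblast-like, 20 marrow stromal-like, 9 mural-like and 6 tenocyte-like cells. In both libraries, the chondrocyte-like class had the highest or next highest level of all 15 of its markers. The osteoblast-like cells were shallow, with a median of 1371 UMIs in MGJ. Monocyte-like cells came mostly from different clusters in the libraries, 792 of 959 from a cluster led by Ms4a4c in MGJ and 1413 of 1729 from a cluster led by E230029C05Rik in MGJ2. Free RNA was gauged by 13 genes of cartilage, bone and connective tissue, such as Col2a1 and Col1a1, in the haematopoietic-like classes. Their median level there was 1.08% to 2.69% of that in mesenchymal-like cells in 10 classes of MGJ and 15.9% in its erythroid-like class. In MGJ2 it was 0.0488% to 0.311%.

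Tgfb1, the ligand gene of most blood cells, was counted in every class of both libraries. Its level in MGJ was highest in NK cell-like cells, at 821 CPM (706 to 949), followed by 454 in T cell-like and 396 in B cell-like cells. Monocyte-like cells had 294, macrophage-like cells 234 and chondrocyte-like cells 143 CPM, and fibroblast-like cells had the lowest level, 61.8. In MGJ2 NK cell-like cells again stood first, with 1208 (1169 to 1248) CPM. Monocyte-like cells followed with 781 and dendritic-like cells with 718, while neutrophil-like cells had 131 and osteoclast-like cells 76.8. The step from NK cell-like cells to the next class exceeded counting error in both libraries, whereas T cell-like and B cell-like cells in MGJ were not told apart (ratio 1.15, 0.902 to 1.47).

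Tgfb2, the ligand that betaglycan presents, was counted mainly in mesenchymal-like cells. Chondrocyte-like cells of MGJ had 489 CPM (483 to 495), above 371 in fibroblast-like and 359 in tenocyte-like cells, which were not told apart. Mural-like cells had 240, osteoblast-like cells 229 and endothelial-like cells 46.1 CPM. In MGJ2 chondrocyte-like cells had 324 (306 to 342) and endothelial-like cells 60.02, and no other class of at least 50 cells passed 1.68. The 77 other mesenchymal-like cells of MGJ2, in classes below 50 cells, together had 213 CPM. In no haematopoietic-like class of MGJ did the lower bound of Tgfb2 exceed the highest of the 13 stromal reference genes, and in MGJ2 it did so in 1 class of 12, on 5 UMIs in myeloid progenitor-like cells.

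Tgfb3 was the scarcest ligand transcript. Its levels in MGJ were 52.1 CPM (40.8 to 65.6) in mural-like cells and 42.1 in tenocyte-like cells, a pair not told apart. Osteoblast-like cells had 26.9, chondrocyte-like cells 15 and fibroblast-like cells 11.9 CPM. In MGJ2 chondrocyte-like cells had 44.7 (38.4 to 51.7) and NK cell-like cells 10.4 (7.06 to 14.7), the latter from 31 UMIs. Together, the 77 other mesenchymal-like cells there had 63.8 CPM. The NK cell-like level was 21.8% of that in mesenchymal-like cells, beside at most 1.79% for the stromal reference genes in the same cells.

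The make-up of the ligand transcripts differed between lineages. Tgfb1 gave 13.9% (12.9% to 14.9%) of the ligand UMIs in fibroblast-like cells, 20.6% in tenocyte-like, 22.1% in chondrocyte-like, 31.1% in mural-like and 43.3% (38.7% to 48.0%) in osteoblast-like cells of MGJ. Tgfb2 gave the larger part in all 5 of these classes, from 50.8% in osteoblast-like to 83.4% in fibroblast-like cells. In endothelial-like cells Tgfb1 made up 78.6% in MGJ and 81.6% in MGJ2. It passed 90% in 9 of 11 haematopoietic-like classes of MGJ, the exceptions being osteoclast-like cells with 86.8% and erythroid-like cells with 65.9% of only 41 ligand UMIs. In MGJ2 it passed 90% in 12 of 12, with 98.2% as the lowest, and chondrocyte-like cells there had 36.5%.

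**Figure D1:**
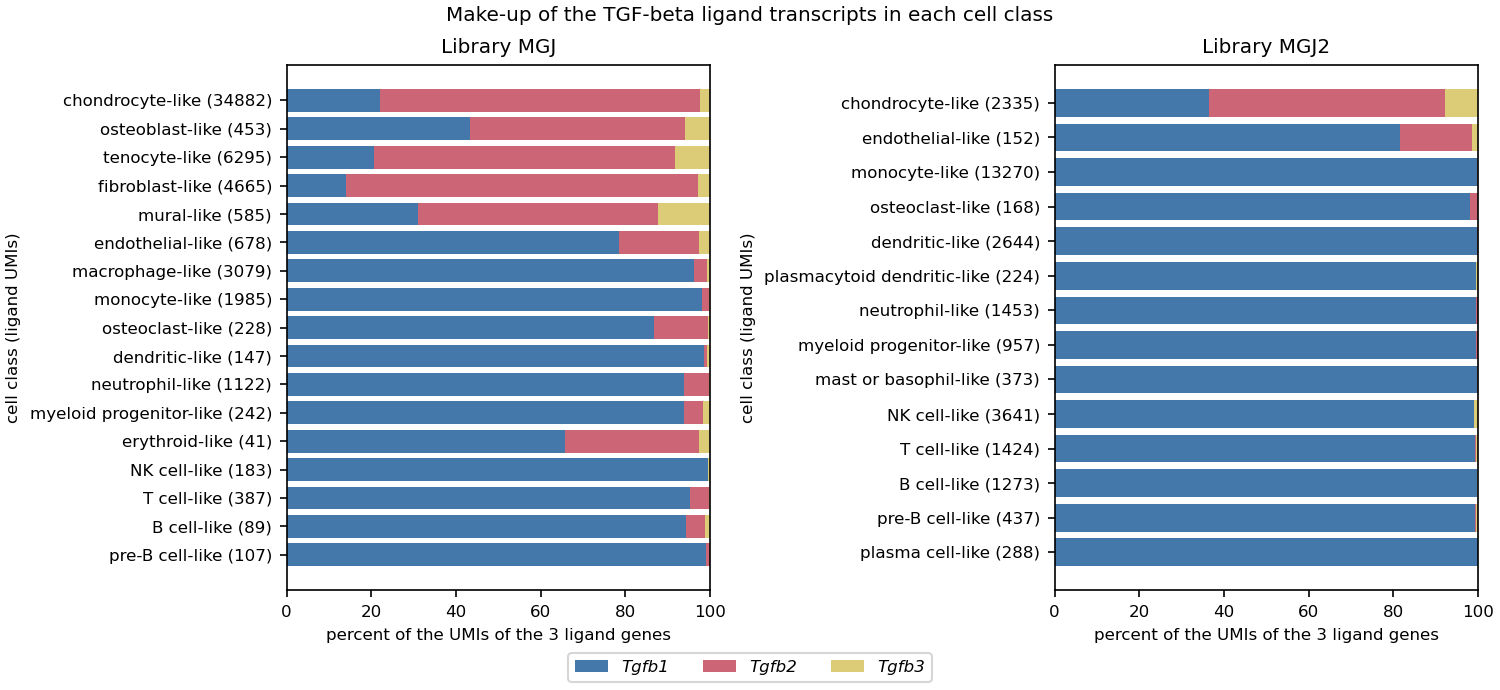
Bars give the percent of the UMIs of Tgfb1, Tgfb2 and Tgfb3 together (x axis) in each cell class of at least 50 cells (y axis, with the number of ligand UMIs), for each library. Tgfb2 is the widest band in the mesenchymal-like classes, with 83.4% in fibroblast-like cells of MGJ, and Tgfb1 fills nearly the whole bar in most haematopoietic-like classes.

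Tgfbr1, the type I receptor, was highest in osteoclast-like cells of MGJ and in plasmacytoid dendritic-like cells of MGJ2. Osteoclast-like cells of MGJ had 113 CPM (100 to 127), macrophage-like cells 67.0 and endothelial-like cells 55.5, each step exceeding counting error, and chondrocyte-like cells had 10.7 (9.81 to 11.6), the lowest of 17 classes though not told apart from its neighbour, myeloid progenitor-like cells. In MGJ2 plasmacytoid dendritic-like cells had 579 CPM (514 to 649), above 168 in osteoclast-like, 99.9 in neutrophil-like and 95.9 in monocyte-like cells. That high level rested on 53 cells, of which 51 held at least 1 Tgfbr1 UMI. MGJ held 21 plasmacytoid dendritic-like cells, fewer than 50, so that class was not ranked there. Chondrocyte-like cells of MGJ2 had 31.3 CPM.

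Tgfbr2, the ligand-binding type II receptor, was spread over lymphoid, vascular and stromal cells. B cell-like, fibroblast-like, endothelial-like, T cell-like and NK cell-like cells of MGJ had 146, 144, 136, 116 and 104 CPM, with no neighbouring pair told apart. Chondrocyte-like cells had 52.4 and monocyte-like cells 7.54. In MGJ2 the 4 highest were plasmacytoid dendritic-like cells with 307, endothelial-like with 252, B cell-like with 232 and T cell-like with 228, again with no neighbouring pair told apart. Plasmacytoid dendritic-like cells were too few in MGJ to be ranked. Single classes further apart in these orders were not compared with each other. Tgfbr3, the ligand-presenting co-receptor, was a transcript of connective tissue and vessels. Fibroblast-like cells of MGJ had 102 CPM (96.1 to 108), tenocyte-like 37.6 and endothelial-like 29.0, against 6.47 in chondrocyte-like cells. Endothelial-like cells of MGJ2 had 76.2 (52.4 to 107) and chondrocyte-like cells 15.4, and the 77 other mesenchymal-like cells together had 78.4.

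Ltbp1, which anchors latent ligand in the matrix, was highest in tenocyte-like cells of MGJ, with 197 CPM (189 to 205), followed by 78.1 in fibroblast-like and 40.5 in mural-like cells. Chondrocyte-like cells had 35.7 in MGJ and 68.3 in MGJ2, where the 77 other mesenchymal-like cells together had 116. Among haematopoietic-like classes, osteoclast-like cells had 14.5 (10.1 to 20.0) CPM in MGJ and 8.85 (5.33 to 13.8) in MGJ2. These osteoclast-like levels were the only ones whose lower bound exceeded every stromal reference gene in both libraries, and they came from 36 and 19 UMIs.

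Tgfbi, named for its induction by TGF-β, was a transcript of myeloid as well as mesenchymal cells. Monocyte-like cells of MGJ had 957 CPM (933 to 981) and macrophage-like cells 758, above 570 in tenocyte-like, 429 in osteoclast-like, 310 in fibroblast-like and 217 in chondrocyte-like cells. The macrophage-like class held a cluster led by C1qa with 829 and a cluster led by Arg1 with 573. In MGJ2 monocyte-like cells had 645 (633 to 657), dendritic-like 367, osteoclast-like 200 and chondrocyte-like cells 127 CPM. The 33 macrophage-like cells of MGJ2 were fewer than 50 and were not ranked. At a coarser clustering the highest class for Tgfbi became macrophage-like in both libraries. In MGJ2 it also did so with each cell named by its own marker score and with each library clustered alone. B cell-like cells had 18.9 in MGJ, where only 3 of 94 cells held a UMI, and 18.6 in MGJ2. The lower bound of the B cell-like level exceeded the stromal reference genes in MGJ2 but not in MGJ.

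Postn, which encodes the periosteal matrix protein periostin, reached the highest level of any member in a class. Tenocyte-like cells of MGJ had 4153 CPM (4117 to 4189) and fibroblast-like cells 3601 (3565 to 3638), above 704 in mural-like, 425 in osteoblast-like and 357 in chondrocyte-like cells. In MGJ2 chondrocyte-like cells had 159 and endothelial-like cells 11.5, while the 77 other mesenchymal-like cells, in classes below 50 cells, together had 900 CPM. Myeloid progenitor-like cells of MGJ had 182 CPM, or 13.1% of the mesenchymal-like level, where the highest stromal reference gene, Col3a1, stood at 6.84%. Those 71 cells had a median of 21432 UMIs, and in MGJ2 no Postn UMI was counted in the same class. The part that remaining doublets had in this value was not tested.

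Cthrc1 followed Postn with a different order below the first class. Tenocyte-like cells of MGJ had 2064 CPM (2039 to 2090), then osteoblast-like cells 785, fibroblast-like cells 624, chondrocyte-like cells 167 and mural-like cells 60.8. Each of these steps exceeded counting error. Chondrocyte-like cells of MGJ2 had 137 and endothelial-like cells 11.5 CPM, while the 77 other mesenchymal-like cells together had 435. The tenocyte-like cluster scored higher on another list and took its name because the tenocyte markers Tnmd, Thbs4 and Scx led it. Without that name the highest levels in MGJ moved to fibroblast-like cells for Ltbp1 and Postn and to osteoblast-like cells for Cthrc1.

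**Figure D2:**
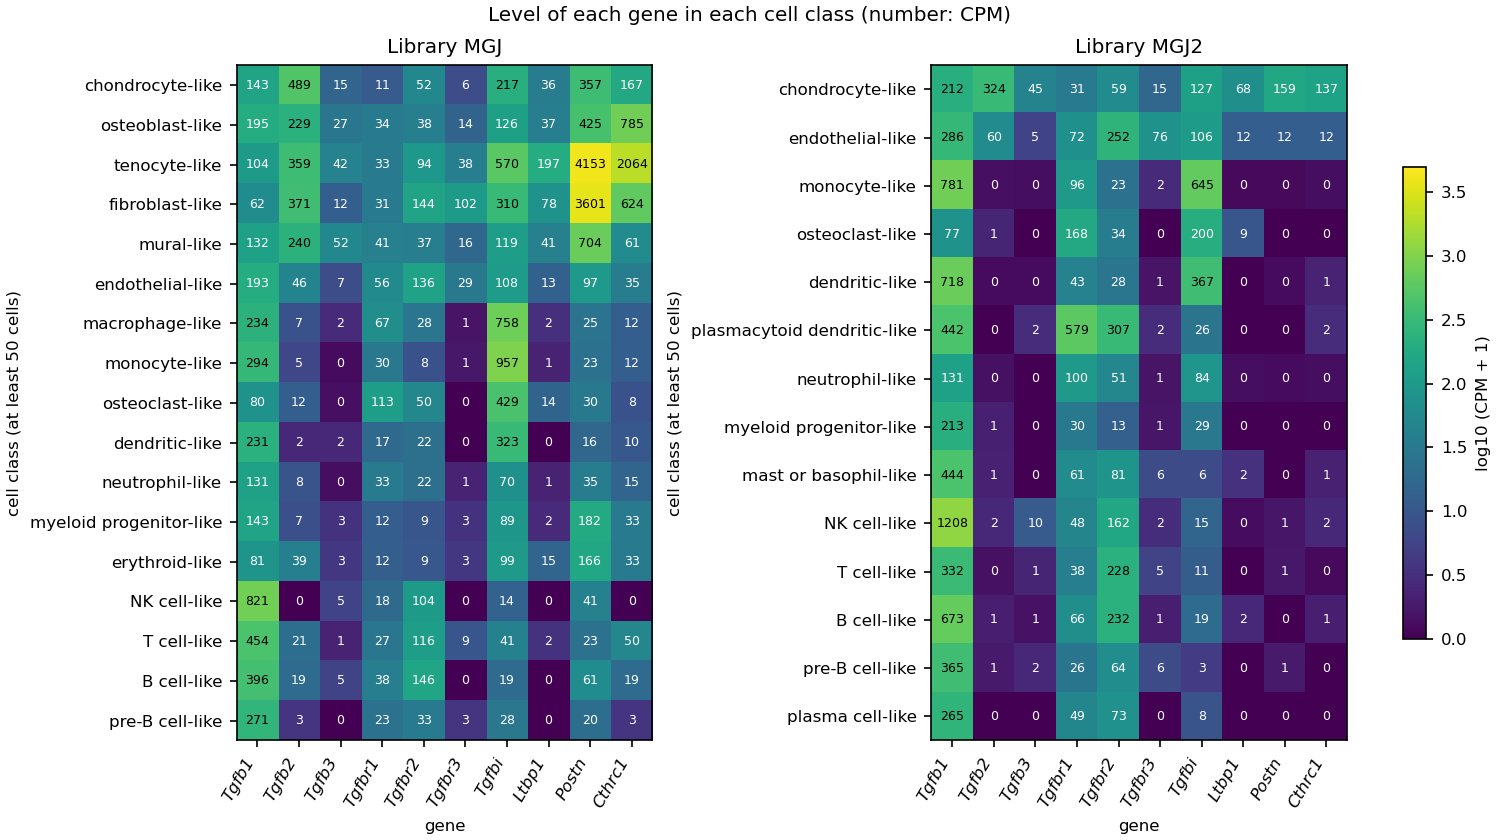
Color gives log10 of CPM plus 1 and the number in each cell gives CPM, rounded, for genes (x axis) and classes of at least 50 cells (y axis) in each library. Postn and Cthrc1 are highest in the tenocyte-like row of MGJ, with 4153 and 2064 CPM, and Tgfb1 in the NK cell-like rows of both libraries.

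Mesenchymal-like cells were first compared with all haematopoietic-like cells, which asks where in the callus ligand, receptor and target transcripts were made. A member was counted when its ratio passed 2-fold with at least 50 UMIs over both sides. In MGJ (4251 against 5447 cells), 7 of 10 members were higher in mesenchymal-like cells, beside 32% of the 14388 genes tested, and 1 was lower, beside 19.8%. In MGJ2 (213 against 7107 cells), 6 of 10 were higher, beside 21.8% of 12885 genes, and 3 were lower, beside 29.1%. The median log2 ratio of the members was 4.35 in MGJ and 4.80 in MGJ2, beside 0.21 and -0.23 over all genes tested.

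The largest ratios belonged to Tgfb2, Postn and Cthrc1. Tgfb2 had 445 CPM in mesenchymal-like and 7.90 in haematopoietic-like cells of MGJ, a ratio of 56.3 (50 to 63.7), and 306 against 0.620 in MGJ2, a ratio of 494 (348 to 724). For Postn the ratios were 38.7 (36.6 to 41.0) and 1017 (604 to 1866), and for Cthrc1 37.6 (34.3 to 41.2) and 380 (256 to 590). Ltbp1 had ratios of 24.7 and 118, Tgfbr3 of 23.9 and 15.2, and Tgfb3 of 17.4 and 51.3. In MGJ, where haematopoietic-like cells carried more stromal reference RNA, the ratios of Tgfb2, Postn, Cthrc1 and Ltbp1 were smaller, and the part of free RNA in them was not tested. Over the settings tried the Tgfb2 ratio ranged from 13.5 to 65.1 in MGJ and from 167 to 578 in MGJ2, and the Postn ratio from 9.60 to 44.1 and from 49.5 to 1264. The remaining members were the ones shared with blood cells. Tgfb1 was lower in mesenchymal-like cells, at 126 against 216 CPM in MGJ (ratio 0.587, 0.569 to 0.605) and 208 against 508 in MGJ2 (0.410, 0.384 to 0.437). Tgfbr1 had ratios of 0.359 (0.334 to 0.386) and 0.438 (0.375 to 0.510), and Tgfbi of 0.537 and 0.463. For Tgfbr2 the ratio was 2.62 (2.44 to 2.81) in MGJ, and in MGJ2 it was 0.943 with an interval, 0.836 to 1.06, that includes 1. The pooled sides held different cells in the libraries. T, B and NK cell-like cells were 224, 94 and 72 of 5447 haematopoietic-like cells in MGJ, and 792, 562 and 692 of 7107 in MGJ2. The mesenchymal-like side of MGJ2 held no fibroblast-like cells, and the part of this make-up in the ratios was not tested.

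The stromal reference genes gave a yardstick within the haematopoietic-like classes. The lower bound of Tgfb1 exceeded the highest reference gene in 11 of 11 classes of MGJ and 12 of 12 of MGJ2. The corresponding numbers were 10 and 12 for Tgfbr1, 9 and 12 for Tgfbr2 and 9 and 11 for Tgfbi. For Tgfb2 they were 0 and 1, for Postn 1 and 0, for Cthrc1 1 and 0, for Ltbp1 2 and 1, for Tgfb3 1 and 3, and for Tgfbr3 1 and 6. The lower bounds of Tgfb2, Postn and Cthrc1 thus exceeded the reference range in at most 1 class of a library.

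**Figure D3:**
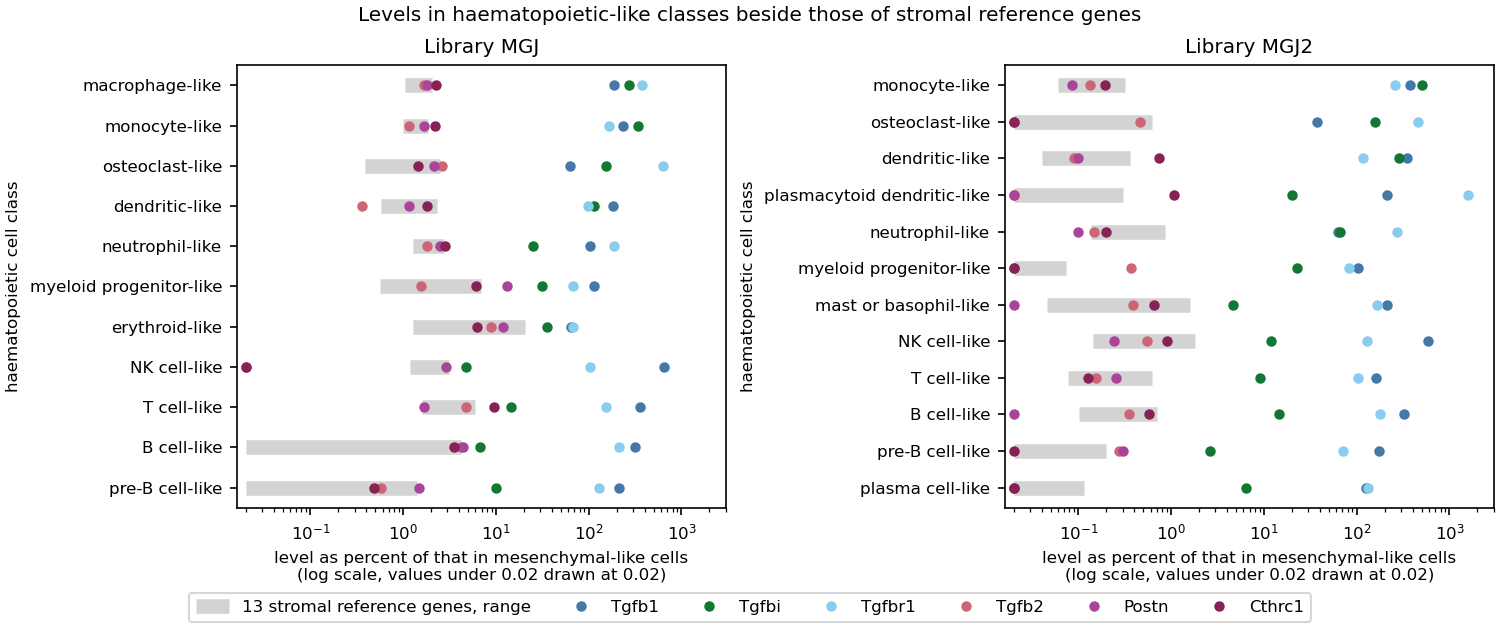
For haematopoietic-like classes (y axis), the x axis gives the level as percent of that in mesenchymal-like cells of the same library (log scale, values under 0.02 drawn at 0.02), grey bars span the 13 reference genes and points are 6 members. Tgfb1, Tgfbr1 and, in myeloid classes, Tgfbi lie far to the right of the bars, while most points of Tgfb2, Postn and Cthrc1 lie on or near them.

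Chondrocyte-like cells were next compared with the other mesenchymal-like cells, since cartilage is the template of endochondral repair. No member was 2-fold higher in chondrocyte-like cells, 0 of 10 in MGJ and 0 of 10 in MGJ2, beside 10.3% of 13424 and 8.24% of 7412 genes tested. In MGJ 6 of 10 were 2-fold lower, beside 22% of genes, and in MGJ2 4 of 10, beside 17.2%. The median log2 ratio of the members was -1.34 and -0.64, beside -0.28 and -0.29 over all genes. The lower members were Postn, Cthrc1, Tgfbr1 and Tgfbr3 in both libraries, with Ltbp1 and Tgfbr2 in MGJ. In MGJ Postn had 357 CPM in chondrocyte-like and 3583 in the other mesenchymal-like cells, 10.05-fold lower (9.89 to 10.2). Tgfbr3 was 9.62-fold lower (8.56 to 10.8), Cthrc1 7.80-fold, Ltbp1 3.71-fold, Tgfbr1 3.06-fold and Tgfbr2 2.09-fold lower. The other side in MGJ was mostly 723 tenocyte-like and 587 fibroblast-like of 1678 cells, and not each class showed the difference. Ltbp1 in osteoblast-like cells was not told apart from chondrocyte-like cells (ratio 1.03, 0.723 to 1.43), and Postn was 1.19-fold higher there (1.08 to 1.31). Tgfbr2 ranked lower in osteoblast-like and mural-like than in chondrocyte-like cells. Cthrc1 was 2.75-fold higher in chondrocyte-like than in mural-like cells (2.22 to 3.45). In MGJ2 Postn was 5.64-fold lower (5.06 to 6.29), Tgfbr3 5.09-fold, Cthrc1 3.16-fold and Tgfbr1 2.12-fold lower. Of the ligand genes, Tgfb3 was lower in chondrocyte-like cells without reaching 2-fold, with ratios of 0.506 (0.458 to 0.559) and 0.701 (0.507 to 0.985) in MGJ and MGJ2. Against fibroblast-like cells of MGJ alone, Tgfb3 was 1.26-fold higher in chondrocyte-like cells (1.04 to 1.53). Tgfb2 had ratios of 1.39 (1.36 to 1.42) and 1.52 (1.29 to 1.81) in MGJ and MGJ2, and Tgfb1 1.56 (1.49 to 1.63) and 1.11 (0.932 to 1.34). Only 77 cells stood on the other side in MGJ2, mostly osteoblast-like (42) and marrow stromal-like (20) cells, with no fibroblast-like cells. In MGJ2 the ratio of Cthrc1 turned to 1.12 at a coarser clustering and to 2.95 when each library was clustered alone. That of Tgfbi ranged from 0.453 to 4.50 over the settings tried. The ratio of Postn there stayed below 1, between 0.0865 and 0.462.

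**Figure D4:**
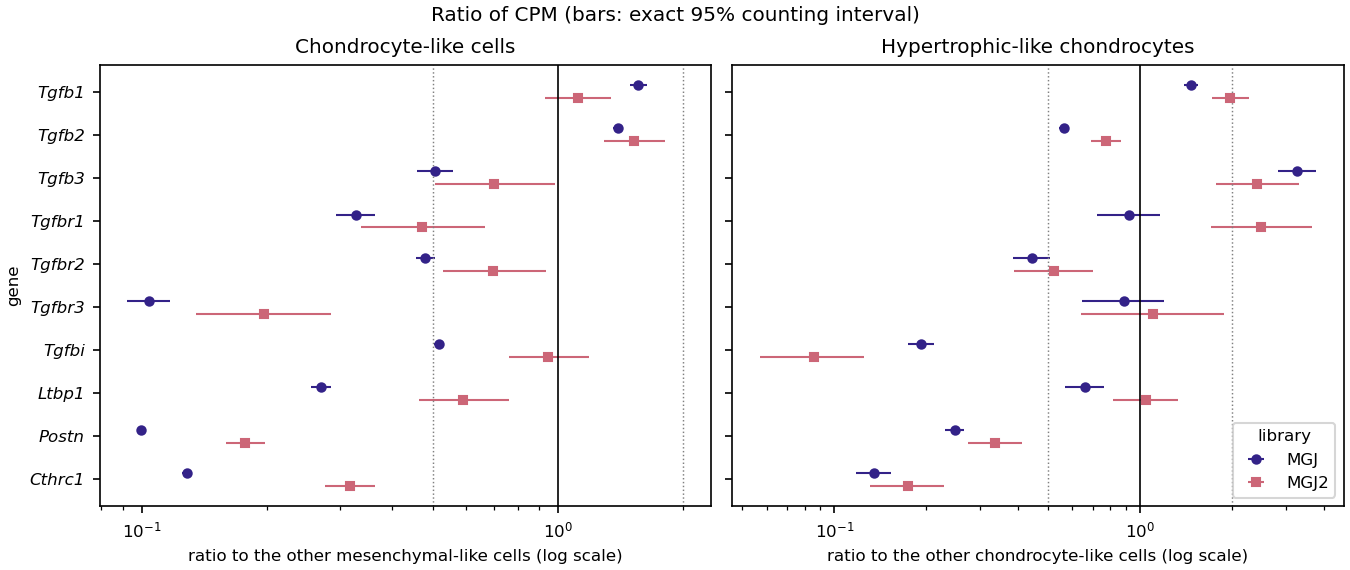
Ratios of CPM (x axis, log scale) for the 10 members (y axis), chondrocyte-like against other mesenchymal-like cells (left) and hypertrophic-like against other chondrocyte-like cells (right), with points for libraries, bars for exact 95% counting intervals and dotted lines at 2-fold. On the left Postn and Tgfbr3 lie lowest in MGJ, and on the right Tgfb3 lies above 2-fold and Tgfbi, Postn and Cthrc1 below it in both libraries.

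Within cartilage, hypertrophic-like cells, the mature chondrocytes marked by Col10a1, were set against the other chondrocyte-like cells (430 against 2143 in MGJ, 61 against 75 in MGJ2). In MGJ 1 of 10 members was 2-fold higher, beside 8.13% of 12305 genes tested, and 4 were lower, beside 12.4%. In MGJ2 2 of 10 were higher, beside 8.02% of 6471 genes, and 3 were lower, beside 10.1%. The median log2 ratio of the members was -0.71 and -0.15, beside -0.05 and 0.05 over all genes. Tgfb3 was higher in both libraries, with 36.0 against 11.0 CPM in MGJ, a ratio of 3.27 (2.82 to 3.77), and 68.3 against 28.3 in MGJ2, a ratio of 2.42 (1.77 to 3.32). Its ratio in MGJ was 1.63 when cells over 10% mitochondrial UMIs were removed. Tgfb1 had ratios of 1.47 (1.39 to 1.55) and 1.98 (1.72 to 2.27), whereas Tgfb2 had 0.565 (0.542 to 0.588) and 0.774 (0.689 to 0.868). The matrix genes were lower in hypertrophic-like cells of both libraries. Tgfbi had 47.9 against 249 CPM in MGJ (5.20-fold lower, 4.71 to 5.75) and 17.5 against 204 in MGJ2 (11.6-fold lower, 7.99 to 17.5). Cthrc1 was 7.43-fold and 5.73-fold lower, and Postn 4.04-fold and 2.97-fold lower. Over the settings tried the Tgfbi ratio ranged from 0.169 to 0.452 in MGJ and from 0.0831 to 0.463 in MGJ2. Tgfbr2 had 25.5 against 57.5 CPM in MGJ, a ratio of 0.444, and a ratio of 0.524 in MGJ2. The type I receptor differed between the libraries, with a ratio of 0.921 (0.723 to 1.16) in MGJ and 2.49 (1.71 to 3.66) in MGJ2, where it rested on 80 and 46 UMIs. That difference between libraries was not tested.

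The sub-clusters of chondrocyte-like cells in MGJ showed how the members were arranged. A sub-cluster of 841 cells led by Penk, with few Col10a1 UMIs, had 676 CPM of Tgfb2 (664 to 688), 298 of Tgfbi, 461 of Postn and 7.28 of Tgfb3. The hypertrophic-like sub-cluster, led by Pank1, had 296 of Tgfb2, 47.9 of Tgfbi, 100.2 of Postn and 36.0 of Tgfb3. Between them a sub-cluster of 523 cells led by Ppa1 had 489 of Tgfb2, 170 of Tgfbi, 161 of Postn and 14.3 of Tgfb3. The highest Tgfb2 and Cthrc1 levels, 893 and 667 CPM, were in 130 cells led by Bglap, the gene of osteocalcin. Proliferating cells led by Ube2c had the highest Postn and Tgfbi levels among the sub-clusters, 685 and 395. Some sub-clusters departed from this order. The one led by Smim5, with 2295 of Col10a1, had 157 of Tgfb2 and 578 of Postn, and the one led by Espn, with 3293 of Col10a1, had 234 of Tgfb2, 591 of Postn and 6.99 of Tgfb3. The one led by Saa1, with 271 of Col10a1, had 371 of Tgfb2, 123 of Tgfbi and 3.43 of Tgfb3.

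**Figure D5:**
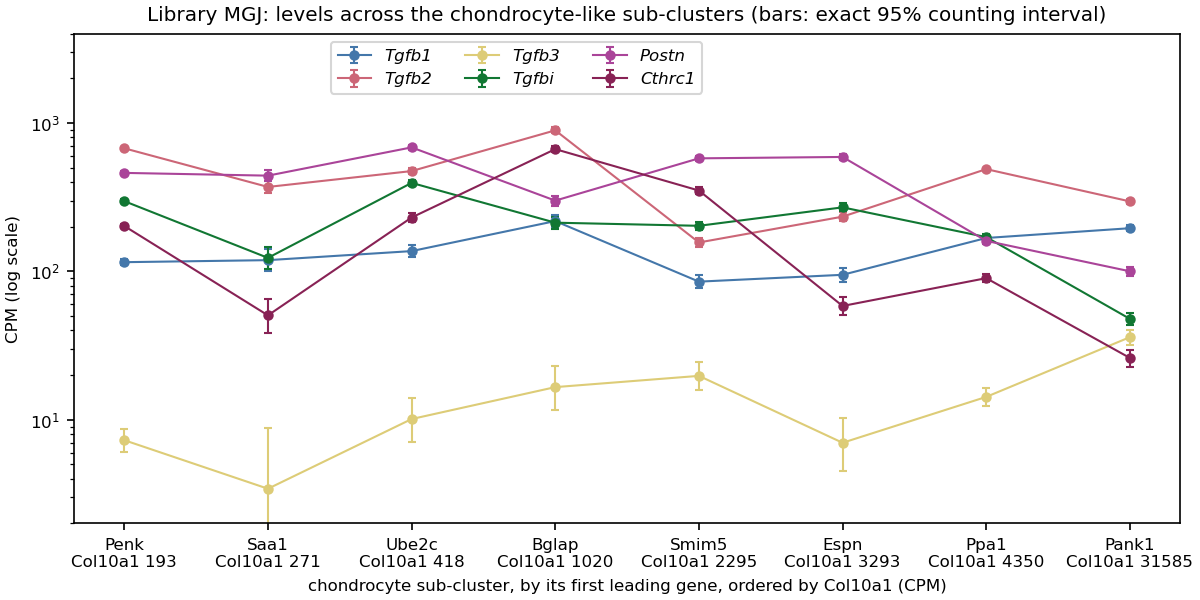
Levels of 6 members (y axis, CPM, log scale) in the 8 chondrocyte-like sub-clusters of MGJ, ordered along the x axis by their Col10a1 level and named by their first leading gene, with exact 95% counting intervals as bars. Tgfb3 is highest and Tgfbi, Postn and Cthrc1 are lowest at the right end, in the hypertrophic-like sub-cluster led by Pank1, with 36.0, 47.9, 100.2 and 26.1 CPM.

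Among myeloid cells, macrophage- and monocyte-like cells were compared with neutrophil-like cells. In MGJ (2328 against 2258 cells) 1 of the 7 members with enough UMIs was 2-fold higher, beside 54.8% of 9946 genes tested, and 0 were lower, beside 8.87%. In MGJ2 (1762 against 2438 cells) 2 of 4 were higher, beside 39% of 10079 genes, and 1 was lower, beside 13.5%. Over all genes tested the median log2 ratio was 1.17 in MGJ and 0.66 in MGJ2, and over the members -0.08 and 1.27. Tgfbi was higher in both libraries, with 827 against 69.9 CPM in MGJ, a ratio of 11.8 (10.9 to 12.9), and 650 against 83.9 in MGJ2, a ratio of 7.75 (7.25 to 8.30). Tgfb1 had a ratio of 1.94 (1.82 to 2.08) in MGJ, which turned to 0.864 when values were scaled to the median gene. In MGJ2 its ratio was 5.88 (5.57 to 6.21), and 3.73 under that scaling. Tgfbr2 was lower in macrophage- and monocyte-like cells of MGJ2, with 23.3 against 50.6 CPM (2.17-fold lower, 1.91 to 2.47), and had a ratio of 0.946 (0.790 to 1.14) in MGJ. The sides held different cells in the libraries, 1369 of 2328 cells being macrophage-like in MGJ and 33 of 1762 in MGJ2. Neutrophil-like cells came mostly from a cluster led by Cstdc4 in MGJ (1434 of 2258 cells, Tgfbr2 at 10.3 CPM) and from a cluster led by Gm39321 in MGJ2 (1555 of 2438 cells, 52.7 CPM). Low-UMI cells that scored best for neutrophil markers but stayed unnamed, 2753 in MGJ and 18 in MGJ2, stood on neither side. The part of this make-up in the ratios was not tested. Tgfbr1 had a ratio of 1.62 (1.42 to 1.86) in MGJ, which that scaling turned to 0.722, and of 0.989 (0.917 to 1.07) in MGJ2. The lower bounds of Postn, Cthrc1 and Tgfb2 did not exceed the stromal reference range in macrophage-like or monocyte-like cells.

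Shares of cells with a UMI were taken after every cell was thinned to 2000 UMIs, and their order was not always that of the levels. Cthrc1 was seen in 53.1% (48.9% to 57.2%) of fibroblast-like and 48.2% (37.3% to 59.3%) of osteoblast-like cells of MGJ. Its level there was 1.26-fold higher in osteoblast-like cells (1.17 to 1.36). Tgfb1 was seen in 70.2% (56.6% to 81.6%) of NK cell-like cells of MGJ and 79.2% (75.9% to 82.3%) of those of MGJ2, against 18.8% and 19.3% of neutrophil-like cells. Tgfb2 was seen in 48.8% (46.9% to 50.8%) and 34.6% (26.6% to 43.2%) of chondrocyte-like cells, against 1.56% and 0.0541% of neutrophil-like cells, a class that should lack it. Before thinning, with median depths of 20785 and 28312.5 UMIs in chondrocyte-like and 2315.5 and 2569 in neutrophil-like cells, the chondrocyte-like shares of Tgfb2 were 87.9% and 86.8% and the neutrophil-like shares 2.35% and 0.205%. Postn was seen in 92.5% of tenocyte-like cells of MGJ, 34.9% of chondrocyte-like cells and 5.57% of neutrophil-like cells. Tgfbi was seen in 76.6% and 65.4% of monocyte-like cells, against 11.4% and 18.7% of neutrophil-like cells. Tgfbr1 was seen in 62.3% (47.9% to 75.2%) of plasmacytoid dendritic-like cells of MGJ2, against 21.9% of neutrophil-like cells. Thinning left out cells below 2000 UMIs, 912 of 2258 neutrophil-like cells and 38 of 2573 chondrocyte-like cells in MGJ.

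The wider pathway was followed in 40 further genes for storage and latency, activation, receptor regulation, SMAD signalling and response. Between mesenchymal-like and haematopoietic-like cells, 25 were higher and 4 lower of 40 tested in MGJ, and 23 were higher and 5 lower of 39 in MGJ2. Over all genes 32% were higher and 19.8% lower in MGJ, and 21.8% and 29.1% in MGJ2. Response genes led this count, 9 of 10 being higher in mesenchymal-like cells of both libraries, and storage and latency genes followed with 7 of 8 and 6 of 8. The largest ratios in MGJ were 56.1 for Tagln, a smooth muscle actin-binding protein, and 41.8 for Fbn1, the fibrillin that holds latent complexes. In MGJ2 Ltbp2 had 117 UMIs in mesenchymal-like and 0 in haematopoietic-like cells, at least 421-fold higher against a floor of 3 UMIs over the group, and Lox, which cross-links collagen, had a ratio of 540. Nrros, which holds latent ligand on myeloid cells, was 41.0-fold lower in mesenchymal-like cells of MGJ and 24.7-fold lower in MGJ2. Next lowest were Thbs1, an activator of latent ligand, with a ratio of 0.195 in MGJ, and Acvrl1, an endothelial type I receptor, with 0.208 in MGJ2.

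Chondrocyte-like cells had 3 pathway genes higher and 18 lower than other mesenchymal-like cells of 40 tested in MGJ, and 4 higher and 14 lower of 34 in MGJ2. Over all genes 10.3% were higher and 22% lower in MGJ, and 8.24% and 17.2% in MGJ2. Storage and latency genes were lower in 7 of 8 and 4 of 6 cases. Ccn2, a matricellular response gene, was higher in both libraries, with ratios of 4.74 (4.63 to 4.86) and 3.78 (3.49 to 4.11), followed by the decoy receptor Bambi with 4.0 in MGJ and by fibronectin, Fn1, with 2.73 in MGJ2. Tagln and Acta2, genes of contractile cells, were 194-fold and 67.4-fold lower in MGJ and 101-fold and 74.9-fold lower in MGJ2, and the mural-like cells stood on the other side of that comparison. In hypertrophic-like cells 5 pathway genes were higher and 11 lower of 39 tested in MGJ, and 1 was higher and 7 lower of 30 in MGJ2. Over all genes 8.13% were higher and 12.4% lower in MGJ, and 8.02% and 10.1% in MGJ2. Bambi with 2.90 and Acta2 with 2.79 had the largest ratios in MGJ, Fbn2 (16.4-fold lower) and Ltbp2 (5.02-fold lower) the smallest. In MGJ2 they were Tgif1 with 2.86 and Smad7 with 1.90, and Ltbp2 (8.72-fold lower) and Thbs1 (8.29-fold lower). Between macrophage- or monocyte-like and neutrophil-like cells, 12 were higher and 5 lower of 34 tested in MGJ, and 11 were higher and 5 lower of 27 in MGJ2. Over all genes 54.8% were higher and 8.87% lower in MGJ, a larger share higher than among the pathway genes, and 39% and 13.5% in MGJ2. Mmp14, a membrane protease, had a ratio of 39.0 in MGJ, and the SMAD anchor Zfyve9 had 31.1 (8.45 to 259) on 2 neutrophil-like UMIs. The inhibitory Smad6 with 242 (66.7 to 1999) and Zfyve9 with 87.4 led in MGJ2, both on 2 neutrophil-like UMIs. Acta2 and Acvrl1 were lowest in both libraries, with ratios of 0.202 and 0.287, and 0.113 and 0.243.

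Likeness of pattern was described by the correlation of log2(CPM + 10) over the 17 classes of MGJ, among 9921 genes, with the value over the 14 classes of MGJ2 beside it. Classes of a library share its depth and free RNA, so these values are descriptions. Only 1 of the 14 classes of MGJ2, the chondrocyte-like class, was mesenchymal-like. A high value there for Tgfb2, Tgfb3, Ltbp1, Postn or Cthrc1 can rest largely on that class. The genes most like Tgfb2 were Gpx7 (r = 0.98 and 0.99), Kdelr3 (0.98 and 0.98) and P3h3 (0.98 and 0.99). Postn was most like the collagen gene Col3a1 (0.99 and 0.95), then Mrc2 and Aspn, and Cthrc1 most like Matn2 (0.97 and 0.71), Fzd2 and Zfhx4. Ltbp1 was most like Fam171b (0.99 and 0.56), Angptl2 and Pkd2. The most alike genes were Arhgef25 (0.95 and 0.91), Plce1 and Foxs1 for Tgfb3, Nsg1 (0.96 and 0.96), Fbln2 and Stox2 for Tgfbr3, and Mcub (0.90 and 0.85), St3gal1 and Sestd1 for Tgfbi. For Tgfb1 the most alike gene was Esco1, at 0.92 and 0.44, ahead of Stk10 and Zfp429. For Tgfbr1 it was Phyhd1, at 0.84 and 0.41, ahead of Fblim1 and Kif1c. Tgfbr2 was most like Eif2ak3 (0.87 and 0.71), Zbtb4 and Efcab14. Among members, Ltbp1 and Postn were most alike in MGJ (0.92, and 0.95 in MGJ2), Postn and Cthrc1 in MGJ2 (0.89 in MGJ and 0.995), and Tgfb1 and Tgfb2 had correlations of -0.53 and -0.22.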

How the data were processed

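Both samples were 10x Genomics 3′ (version 3) scRNA-seq libraries of callus. The authors deposited unnormalized counts of UMIs per gene and barcode, and the file headers name Cell Ranger 4.0.0. The submitters' processing notes name GRCm38 and Seurat, and counting settings beyond these are not given in the sources used here. Depth was 135304426 UMIs in MGJ and 61130834 in MGJ2.

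Barcodes with fewer than 200 genes (371 and 70) or over 20% mitochondrial UMIs (464 and 133) and doublets called with Scrublet (138 and 223) were removed. After log-transformation of counts scaled to 10000 per cell, 2000 variable genes (without the 10 members and 40 pathway genes), 30 principal components and 15 neighbours entered Leiden clustering of both libraries at resolution 1 (scanpy 1.11.5, leidenalg 0.10.2, igraph 0.11.9, scikit-learn 1.9.0, Python 3.11.15, numpy 2.4.6, scipy 1.17.1, pandas 2.3.3, matplotlib 3.10.9). The 36 clusters were named from 26 marker lists (best score at least 1, at least 3 markers in at least 10% of cells), hence "-like". Clusters led by markers of another list took that name if a single list led them. Clusters of low UMI count without a leading marker stayed unnamed, as did 3345 and 213 cells in all, among them 2753 and 18 low-UMI cells scoring best for neutrophil markers. Chondrocyte sub-clusters (resolution 0.5) led by other markers were set aside (469 of 3042 and 12 of 148 cells), and hypertrophic-like cells were the sub-cluster with Col10a1 among its 10 leading genes. These naming rules were settled after leading genes, but not levels of the members by class, had been seen.

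Levels are summed CPM with exact Poisson intervals, ratios have exact conditional binomial intervals and shares exact Clopper-Pearson intervals, all at 95%. PCR and sampling of cells are not covered. A gene was tested with at least 50 UMIs over both sides and counted past 2-fold. Scripts were tested on simulated data. Named genes were all members, the 2 pathway genes with the largest ratio in each direction per comparison and the 3 genes most alike to each member among genes of at least 20 CPM in 1 class. Members and lists were chosen with earlier results of these data known. Alternatives covered clustering, filters, naming, weighting, scaling and thresholds.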

Additional observations from a re-analysis of the deposited data

Results flagged for a closer look

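The 10 members were also counted outside the named classes. In the 835 barcodes that the filters removed from MGJ, they summed to 1261 CPM (1204 to 1320) from 1817 UMIs, above the 2.08 that a count of 3 would give. In the 203 removed barcodes of MGJ2 they summed to 650 CPM (574 to 732) from 267 UMIs, above 7.30 for a count of 3.

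Cells without a class name held member transcripts too. The 3345 such cells of MGJ summed to 1878 CPM (1856 to 1900), above 0.199 for a count of 3, of which Postn gave 702, Cthrc1 303 and Tgfb2 303. They mixed 469 cells set aside from the chondrocyte clusters with 2753 low-UMI cells that scored best for neutrophil markers. The 213 such cells of MGJ2 summed to 1016 CPM (961 to 1073), above 2.39 for a count of 3, of which Tgfb1 gave 500.3 and Tgfbr2 182.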

How the results depend on the processing

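No paired analysis was possible because the 2 libraries carry no group or replicate number and no result comes from a test. Of 248 counts recomputed under 19 settings, 215 stayed within 1.5 times and 33 moved, and of 820 ratios of single members 499 moved within their counting interval, 319 moved further, and among ratios past 2-fold 2 changed direction. Scaled to the median gene, the members higher in haematopoietic-like cells became 2 in MGJ and 1 in MGJ2, and those higher in neutrophil-like cells of MGJ became 4. With every cell weighted equally, members higher in haematopoietic-like cells of MGJ2 became 1. At 1.5-fold, 3 members were higher in haematopoietic-like cells, 1 in chondrocyte-like and 3 in macrophage- and monocyte-like cells of MGJ. At 3-fold, 0 were higher in haematopoietic-like cells of either library, and 0 in hypertrophic-like and 0 in neutrophil-like cells of MGJ2. Members higher in chondrocyte-like cells of MGJ2 became 1 at resolution 0.5, with equal weights, at 1.5-fold, with each cell named by its own marker score, at most 10% mitochondrial UMIs and with each library clustered alone. In that comparison Cthrc1 changed direction, to 1.12 at resolution 0.5 and 2.95 with each library clustered alone. In hypertrophic-like cells of MGJ, 0 members were higher at 10% mitochondrial UMIs and 7 lower at resolution 0.5. Members higher in macrophage- and monocyte-like cells of MGJ became 2 at resolution 0.5, at resolution 2, without a minimum of UMIs and with doublet calls kept, and 3 with members and pathway genes used in clustering and at 10% mitochondrial UMIs. In MGJ2 they became 4 without a minimum. The class with the highest level stayed the same for 6 of 10 members in both libraries at resolution 0.5, and for 4 in MGJ2 with per-cell names and at 10% mitochondrial UMIs. Without thinning, 94 shares in MGJ and 57 in MGJ2 exceeded the neutrophil-like share, where thinning gave 58 of 160 and 32 of 130. Of alternatives chosen after seeing the data, dropping the need for a leading hypertrophic marker left 1 member higher in hypertrophic-like cells of MGJ2, while leaving out osteoblast-like cells or the tenocyte-like name moved no count over 1.5 times. The causes were not tested. Hypertrophic-like cells were under 20 on a side, and gave no value, at resolution 2 in both libraries and, in MGJ2, at resolution 0.5, at 10% mitochondrial UMIs, with per-cell names and with each library clustered alone, and scaling to the median gene gives no order of classes. Depth limits low values, since 3 UMIs amount to 13.5 CPM in NK cell-like and 14.2 in B cell-like cells of MGJ.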
